A study of Mus musculus with 9 samples.

Results

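The 7 mature miRNAs described here are miR-125a-5p, miR-125a-3p, miR-125b-5p, miR-99a-5p, miR-99b-5p, miR-99b-3p and miR-100-5p, which come from hairpins that share their clusters with let-7. They were taken by name from the deposited table of 1448 mature mouse miRNAs, and all 7 passed the filter of at least 10 reads in at least 3 of 9 libraries that 628 miRNAs passed. The rule for the names used no measured difference between the groups, although the members were chosen with earlier results of these data known. Small RNA was sequenced from hippocampi of adult male C57BL/6J mice, and no group carried a transgene or deletion. The saline group received 0.9% saline, and the LPS group received a single intraperitoneal dose of 1 mg/kg lipopolysaccharide (LPS), a bacterial endotoxin, with a vehicle that the labels write as 0.12% saline. The LPS + GAS group received the same LPS dose and 100 mg/kg gastrodin (GAS), a phenolic glucoside, 1 h after LPS by the labels. No vehicle is given for it in the labels. Each group held 3 libraries, and the labels do not say whether each library is a separate mouse, so p-values measure the spread between these libraries only. Whole hippocampus holds neurons, glia, vessels and blood, so a lower level can come from fewer cells of a type or from less RNA per cell, which cannot be told apart.

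MiR-125 is the mammalian counterpart of lin-4, a miRNA of C. elegans that times developmental steps together with let-7. Its known targets include Lin28, whose protein blocks the processing of let-7 precursors, and Tnf, a cytokine gene induced by LPS in macrophages. MiR-99 and miR-100 form an old animal miRNA family with targets in the mTOR pathway. In mammals the hairpins of these families sit beside let-7 hairpins, and in the brain both families are abundant.

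The mature sequences are given because the seed, bases 2 to 8 from the 5′ end, sets which targets a miRNA pairs with, and because near-identical sequences limit how reads can be assigned. They are printed 5′ to 3′ as the deposited table gives them, with the seed in capitals, and all 7 have the same sequence in RefSeq.

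mmu-miR-125a-5p: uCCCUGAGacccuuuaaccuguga

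mmu-miR-125b-5p: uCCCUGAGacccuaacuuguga

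mmu-miR-351-5p: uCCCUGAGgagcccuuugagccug

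mmu-miR-99a-5p: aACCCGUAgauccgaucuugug

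mmu-miR-100-5p: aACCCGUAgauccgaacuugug

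mmu-miR-99b-5p: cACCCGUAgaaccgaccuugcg

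mmu-miR-125a-3p: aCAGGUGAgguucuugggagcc

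mmu-miR-99b-3p: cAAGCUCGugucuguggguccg

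MiR-125a-5p and miR-125b-5p shared their first 13 bases and the seed CCCUGAG, which among the 1448 rows was otherwise found only in miR-351-5p. The seed ACCCGUA was found in miR-99a-5p, miR-99b-5p and miR-100-5p and in no other row. Counted from 1 at the 5′ end, with the base of miR-99a-5p written first, miR-100-5p differed from miR-99a-5p by U16A alone. MiR-99b-5p differed from miR-99a-5p by A1C, U11A, U16C and U21C. A read with 1 error at position 16 can therefore move between miR-99a-5p and miR-100-5p, and how the authors' counting treated such reads was not stated. The 3p arms had other seeds. That of miR-99b-3p was shared with miR-99a-3p, and that of miR-125a-3p was found in no other row.

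The 7 miRNAs come from 3 loci on the forward strand of GRCm38, each with a let-7 hairpin in the middle. On chromosome 17, Mir99b (chr17:17830188-17830257), Mirlet7e (chr17:17830352-17830444) and Mir125a (chr17:17830812-17830879) lie in the protein-coding gene Spaca6, with 94 and 367 bases between neighbouring hairpins. Mir99b and Mirlet7e are in an intron of Spaca6, and Mir125a overlaps an annotated exon. The cluster on chromosome 16 is spread wider, with Mir99a (chr16:77598936-77599000) 656 bases before Mirlet7c-1, and Mir125b-2 (chr16:77646273-77646343) a further 46522 bases on, all in introns of the non-coding gene Mir99ahg. On chromosome 9, Mir100 (chr9:41531425-41531504) lies 5211 bases before Mirlet7a-2, and Mir125b-1 (chr9:41581926-41582002) follows after 45114 bases. These hairpins are in introns of the non-coding gene 3110039I08Rik, with Mir100 opposite an exon of the antisense gene Gm48742 and Mir125b-1 also inside an exon of the sense-intronic gene Gm28119. MiR-125b-5p has the same sequence from Mir125b-1 and Mir125b-2, so its reads cannot be assigned to either locus.

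The hairpins that give both arms among the 7 miRNAs are those of miR-125a and miR-99b, and they are printed with the 5p and 3p arms in capitals, since the ratio of those arms is measured below.

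mmu-mir-125a: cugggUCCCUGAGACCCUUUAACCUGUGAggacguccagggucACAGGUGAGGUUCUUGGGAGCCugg

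mmu-mir-99b: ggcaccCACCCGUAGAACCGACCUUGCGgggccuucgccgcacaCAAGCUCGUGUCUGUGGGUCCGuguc

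The arms of mmu-mir-125a, a hairpin of 68 bases, are parted by a loop of 14 bases. Those of mmu-mir-99b, with 70 bases, are parted by 16.

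The libraries held 10119758 to 11457656 reads on miRNAs, and the 7 miRNAs took 5.70% to 7.04% of them. LPS replicate 2 stood apart from the rest. Its TMM factor, edgeR's scaling of library totals, was the largest (1.19, against 0.914 to 1.09 in the others), and its median absolute deviation from the mean of all libraries was 0.297 on the log2 scale, against 0.169 to 0.246. Neurons and neural tissue were marked by 6 miRNAs (miR-124-3p, miR-9 and others), all detected, whose summed level was 99400 to 141000 CPM (counts scaled to a common library total). The 4 oligodendrocyte markers summed to 1960 CPM in LPS replicate 2 and to 3290 to 6000 CPM in the other 8 libraries, and the 4 leukocyte and microglia markers to 2570 CPM there and 3680 to 6230 CPM elsewhere. Nearly all of the leukocyte and microglia sum was miR-150-5p, at 2547 CPM in LPS replicate 2. MiR-142a-3p (9.055 CPM) and miR-142a-5p (7.061 CPM) were also lowest in that library, and miR-223-3p (5.898 CPM) was not. The 4 vessel markers summed to 16400 to 22900 CPM. The 16 choroid plexus and ependyma markers, of which 15 passed the filter, summed to 10000 to 30700 CPM in the saline group, 9820 to 23000 CPM in the LPS group and 12800 to 58700 CPM in the LPS + GAS group. MiR-204-5p made up most of each sum and was highest in LPS + GAS replicate 1 (51930 CPM). The miR-34, miR-211, miR-448, miR-1264 and miR-1298 markers were also highest there. MiR-200a-3p, miR-200b-3p and miR-429-3p were instead highest in LPS + GAS replicate 2 (147.5, 52.5 and 445.1 CPM), where miR-204-5p was at 11650 CPM. MiR-1912-3p and miR-449c-5p of that list had 0 reads in at least 1 library. The 4 red blood cell markers, 4540 to 6170 CPM in the LPS + GAS group, were at 2020 to 4270 CPM in the saline group and 2150 to 3240 CPM in the LPS group. Nearly all of this sum was miR-451a, at 4427 to 6049 CPM with LPS + GAS. MiR-144-3p, miR-144-5p and miR-486a-5p each overlapped between the LPS + GAS group and both other groups. The part of these differences in the values below was not tested.

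MiR-99a-5p, the 5p arm of the chromosome 16 hairpin, was the most abundant of the 7 miRNAs and ranked 4 to 7 among all miRNAs in each library. Its level was 49730, 47830 and 44540 CPM with saline, 42800, 34850 and 46790 CPM with LPS, and 45730, 42490 and 45080 CPM with LPS + GAS (replicates 1, 2 and 3 in this and later lists). The lowest level was in LPS replicate 2, and the groups overlapped. As a share of reads without the TMM factor, miR-99a-5p in LPS replicate 2 (4.14%) lay inside the range of the other libraries (4.10% to 5.19%).

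MiR-100-5p, the paralogue from chromosome 9, was at 6660, 6612 and 5998 CPM with saline, 5554, 5379 and 6188 CPM with LPS, and 6900, 7714 and 5755 CPM with LPS + GAS. The LPS libraries included the 2 lowest levels, with LPS replicate 3 above a saline and a LPS + GAS library, so the groups overlapped. MiR-99b-5p, from the compact cluster in Spaca6, was at 6239, 5557 and 6550 CPM with saline, 6168, 3035 and 6891 CPM with LPS, and 8255, 5768 and 6342 CPM with LPS + GAS. It varied most of the 7, with the highest level 2.72 times the lowest, and the lowest was LPS replicate 2. The other 8 libraries lay between 5557 and 8255 CPM.

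MiR-125b-5p was at 2939, 3530 and 2853 CPM with saline, 2730, 4549 and 4108 CPM with LPS, and 2970, 2503 and 3202 CPM with LPS + GAS. The 2 highest levels were LPS replicates 2 and 3, while LPS replicate 1 was lower than every saline library. MiR-125a-5p had the narrowest range of the 7, with the highest level 1.33 times the lowest. Its level was 1315, 1210 and 1189 CPM with saline, 1391, 1145 and 1069 CPM with LPS, and 1425, 1227 and 1073 CPM with LPS + GAS. In each group the highest library was at 1315 CPM or more and the lowest at 1189 CPM or less.

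The 3p arms, which are usually degraded after the 5p strand is loaded into Argonaute, were far lower. MiR-99b-3p was at 61.0, 53.3 and 55.6 CPM with saline, 48.6, 49.2 and 68.1 CPM with LPS, and 60.6, 50.6 and 47.3 CPM with LPS + GAS. MiR-125a-3p was at 11.2, 12.8 and 9.78 CPM with saline, 12.2, 12.0 and 10.8 CPM with LPS, and 13.1, 11.4 and 9.92 CPM with LPS + GAS. It rested on 97 to 145 reads per library, the fewest of the 7. In LPS replicate 2, where miR-99b-5p was lowest, miR-99b-3p and miR-125a-3p were inside the range of the other libraries.

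**Figure D1:**
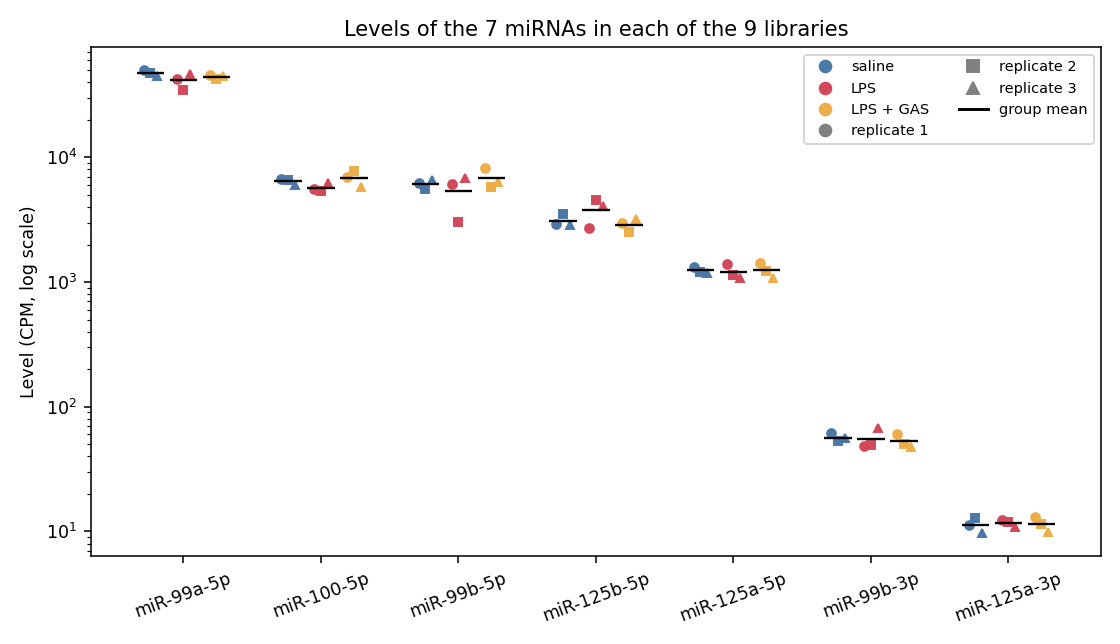
The level of each of the 7 miRNAs (CPM, log scale) is plotted for the 9 libraries, with colour for the group, symbol shape for the replicate and a black line for the group mean. The 3 groups overlap for every miRNA, and the square of LPS replicate 2 lies below all others for miR-99b-5p, at 3035 CPM.

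Because a read stands for a whole mature molecule, levels were compared between miRNAs without division by length, although the efficiency of library preparation can differ between sequences and was not tested. In decreasing mean level the order was miR-99a-5p, miR-100-5p, miR-99b-5p, miR-125b-5p, miR-125a-5p, miR-99b-3p and miR-125a-3p. Of the 6 neighbouring pairs in this order, 5 were separated by an exact sign-flip permutation test over the 9 libraries, where the smallest p possible was 0.003906. The order came from these same libraries, so the tests describe how steady each gap was and are no separate support for the order. MiR-99a-5p was 7.06-fold above miR-100-5p in 9 of 9 libraries (adjusted p = 0.00586, exact permutation). MiR-100-5p and miR-99b-5p were not separated. Their log2 levels differed by 0.08 ± 0.36 (SD, n = 9), miR-100-5p was the higher in 4 of 9 libraries, and the adjusted p was 0.5625 by the exact permutation test. Without LPS replicate 2 this difference was -0.01. MiR-99b-5p was 1.84-fold above miR-125b-5p in 8 of 9 libraries (adjusted p = 0.00938, exact permutation), with LPS replicate 2 as the exception. MiR-125b-5p was 2.63-fold above miR-125a-5p, miR-125a-5p 22.4-fold above miR-99b-3p, and miR-99b-3p 4.78-fold above miR-125a-3p, each in 9 of 9 libraries with an adjusted p of 0.00586 by the same exact permutation test.

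Within each seed family, a single miRNA held most reads. Of the reads of miR-125a-5p and miR-125b-5p together, 66.2% to 79.9% were miR-125b-5p, with LPS replicate 1 lowest and LPS replicate 2 highest. The third miRNA with this seed, miR-351-5p, was at 6.65 to 14.0 CPM. Of the reads with the seed ACCCGUA, miR-99a-5p held 75.1% to 80.6%, miR-99b-5p 7.02% to 13.6% and miR-100-5p 10.1% to 13.8%.

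The question of the LPS and saline comparison is whether endotoxin changed these miRNAs in the hippocampus. By the labels the vehicle also differs (0.12% against 0.9% saline), so LPS and vehicle cannot be told apart. A call needed an adjusted p no higher than 0.05 together with a log2 fold change of 1 or more in size. By edgeR's quasi-likelihood test none of the 7 was called, and 0% of the 628 miRNAs tested were called. The unadjusted p was under 0.05 for 0 of the 7 and for 15 of the 628 miRNAs (2.39%), and DESeq2 and voom also called 0 of the 7. The groups overlapped for each of the 7, while 3.82% of all miRNAs tested had no overlap. Fitted log2 fold changes ran from -0.19 for miR-99a-5p (SE 0.15) to 0.29 for miR-125b-5p (SE 0.21), with 2 above 0 and 5 below 0. Their median was -0.04, and the median over all 628 was also -0.04. The value of miR-99a-5p was -0.05 without LPS replicate 2 and -0.0059 with the second deposited count, exp, described below. In edgeR the adjusted p was 0.992 for each of the 7.

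The largest shift was that of miR-125b-5p, at 3107 ± 369 CPM with saline and 3796 ± 949 CPM with LPS (SD, n = 3 each). Its 95% interval on the log2 scale was -0.18 to 0.76. The estimate was 0.17 without LPS replicate 2 and 0.48 without LPS replicate 1. MiR-99b-5p was at 6116 ± 508 CPM with saline and 5364 ± 2050 CPM with LPS, a log2 fold change of -0.19 (SE 0.28), and without LPS replicate 2 it was 0.13. MiR-125a-5p (-0.04, SE 0.17), miR-99b-3p (-0.04, SE 0.20) and miR-125a-3p (0.05, SE 0.20) had fold changes nearest 0, and their signs turned under some settings. MiR-100-5p was at 6424 ± 369 and 5707 ± 426 CPM, with a log2 fold change of -0.17 (SE 0.15).

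The LPS + GAS and LPS comparison asks whether gastrodin changed these miRNAs after endotoxin. By edgeR none of the 7 was called, against 0% of the 628 miRNAs, and 0 of the 7 and 23 of the 628 (3.66%) had an unadjusted p under 0.05. DESeq2 and voom called 0 of the 7 here too. Groups overlapped for all 7 miRNAs, and 8.60% of those tested had no overlap. MiR-125b-5p had the lowest fold change and the smallest unadjusted p of the 7, with 2892 ± 356 CPM with LPS + GAS and 3796 ± 949 CPM with LPS (SD, n = 3 each). Its log2 fold change was -0.39 (SE 0.21, 95% interval -0.86 to 0.08, edgeR adjusted p = 0.903), and it was -0.23 without LPS replicate 2.

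MiR-99b-5p had the highest, 0.34 (SE 0.28), from 5364 ± 2050 CPM to 6788 ± 1302 CPM, and this became 0.07 without LPS replicate 2. MiR-100-5p was at 6790 ± 984 CPM with LPS + GAS, for a log2 fold change of 0.25 (SE 0.15). The other 4 lay between -0.07 and 0.10. The median of the 7 was 0.05, and that of all 628 was 0.0030.

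In LPS + GAS against saline, which shares its libraries with both comparisons above, none of the 7 was called by edgeR, DESeq2 or voom, against 0.159% of the 628 by edgeR, and 0 of the 7 had an unadjusted p under 0.05, against 21 of the 628 (3.34%). The groups overlapped for each of the 7, while 7.32% of miRNAs tested had no overlap. The fold changes had the narrowest range of the 3 comparisons, from -0.10 for miR-125b-5p (SE 0.21) to 0.15 for miR-99b-5p (SE 0.28), with a median of 0.0045.

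How large a change the libraries could have shown is given by the intervals. The 95% intervals of all 7 miRNAs lay within 1 log2 unit of 0 in each of the 3 comparisons, which was so for 66.9%, 63.5% and 64.6% of the 628 miRNAs in the order in which the comparisons are given above. The intervals reached from -0.86 (miR-125b-5p) to 0.97 (miR-99b-5p), both in LPS + GAS vs LPS. Since a call also needed a log2 fold change of 1 or more in size, a smaller change could not have been called.

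**Figure D2:**
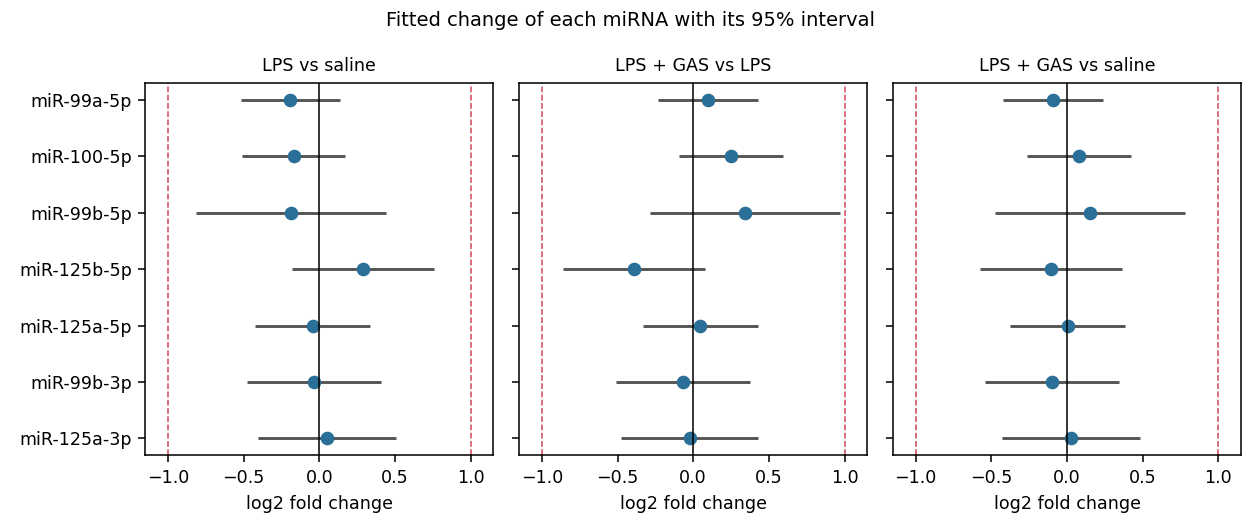
Fitted log2 fold changes (points) with their 95% intervals (lines) are shown for the 7 miRNAs in the 3 comparisons, with dashed lines at a doubling and a halving. Every interval crosses 0 and ends inside the dashed lines, and the widest belong to miR-99b-5p.

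The spread within groups differed between the members. The SD of the log2 level within groups was 0.14 for miR-99a-5p and 0.15 for miR-100-5p, values that 95.5% and 94.7% of the 628 miRNAs exceeded. MiR-125a-5p and miR-125a-3p both had an SD of 0.17. It was 0.20 for miR-99b-3p, 0.27 for miR-125b-5p and 0.41 for miR-99b-5p, and the median over all miRNAs tested was 0.33. Only miR-99b-5p of the 7 was above that median. Its level in LPS replicate 2 was 3035 CPM, while the other libraries lay between 5557 and 8255 CPM.

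The ratio of the 5p to the 3p arm of a hairpin compares products of the same precursor within a library, so the scaling between libraries does not enter it. MiR-125a-5p had 106.6 times the reads of miR-125a-3p on average, with a range of 94.0 to 121. MiR-99b-5p had 108.3 times those of miR-99b-3p, with a range of 61.7 to 136.2. LPS replicate 2 gave the lowest miR-99b ratio, while its miR-125a ratio, 6.58 on the log2 scale, lay among the others (6.56 to 6.92). The arms of the miR-99b paralogues were more unequal, with means of 2343 for miR-99a and 204.8 for miR-100. On the log2 scale the miR-125a ratio had a within-group SD of 0.14, which 97.3% of 188 hairpins exceeded, and the miR-99b ratio one of 0.32, which 64.4% exceeded. In the LPS + GAS group the miR-125a ratio was 6.76, 6.74 and 6.75.

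An arm ratio was called at an adjusted p no higher than 0.05, with no minimum size of the difference. Neither the miR-125a nor the miR-99b arm ratio was called in any comparison by limma, where the share of the 188 hairpins called was 0.532% in each comparison with saline and 0% between LPS + GAS and LPS. All groups overlapped for both hairpins, whereas the share of hairpins without overlap was 5.32% for LPS and 9.57% for LPS + GAS, each against saline, and 7.98% between LPS + GAS and LPS. The 1 hairpin called against saline, in both the LPS and the LPS + GAS group, was miR-21a, which is no member and was named after its values were seen. The largest difference was that of miR-99b in LPS + GAS vs LPS, at 0.46 (SE 0.26, limma adjusted p = 0.921) on the log2 scale, and it was 0.17 without LPS replicate 2. For miR-125a the differences ran from -0.11 to 0.08.

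**Figure D3:**
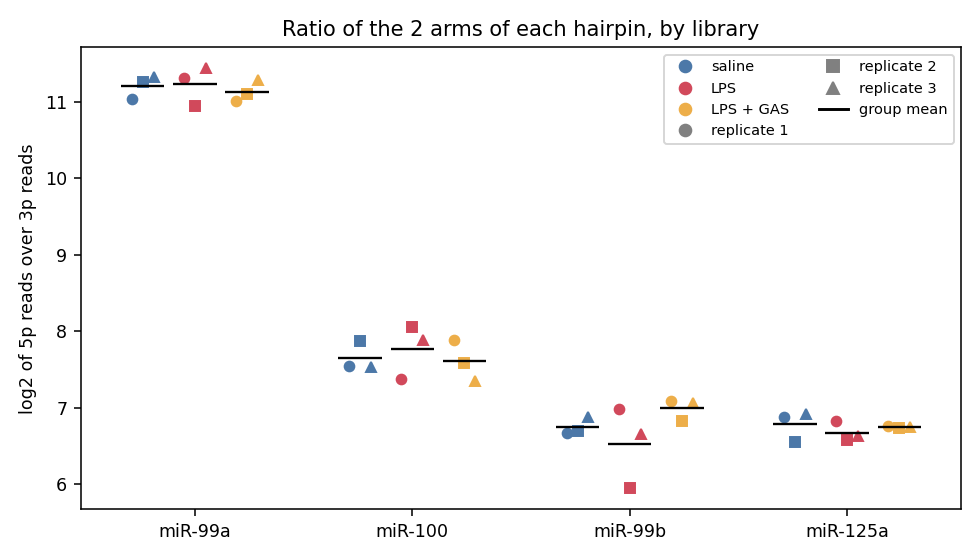
The log2 ratio of 5p to 3p reads is plotted for 4 hairpins in the 9 libraries, with group means as black lines. The miR-99a ratios lie above all others (at least 10.95), and LPS replicate 2 is the lowest miR-99b point, at 5.95.

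The chromosome 17 cluster allows products of neighbouring hairpins to be compared, since its 3 main arms come from a single hairpin each. MiR-99b-5p had 4.84 times the reads of miR-125a-5p on average, with 4.74, 4.59 and 5.51 with saline, 4.43, 2.65 and 6.45 with LPS, and 5.79, 4.70 and 5.91 with LPS + GAS. The lowest and the highest value were both in the LPS group. The 3p arms of the same hairpins stood at a nearly equal mean ratio of 4.78, with a range of 3.97 to 6.33. In LPS replicate 2 the 3p ratio was 4.11, above that of LPS replicate 1. Let-7e-5p, the miRNA between them, had 6.71 times the reads of miR-125a-5p (range 5.27 to 8.82), and let-7e-3p had 16.1 times those of miR-125a-3p (range 13.8 to 19.95). By exact permutation over 3 against 3 libraries, where p cannot fall below 0.1, the lowest p of the 6 tests on miR-99b-5p and let-7e-5p over miR-125a-5p was 0.3 and the adjusted p was 0.8 for each.

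Ratios between paralogues also overlapped between groups. MiR-125b-5p had 2.24, 2.92 and 2.40 times the reads of miR-125a-5p with saline, 1.96, 3.97 and 3.84 times with LPS, and 2.08, 2.04 and 2.98 times with LPS + GAS. The LPS group held the lowest and the 2 highest values. MiR-99a-5p had 5.51 to 7.83 times the reads of miR-100-5p and 5.54 to 11.48 times those of miR-99b-5p, the highest of the latter in LPS replicate 2 and the next at 8.61. Over the 12 tests of paralogue ratios the lowest exact permutation p was 0.3, and all adjusted p-values were 1.

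**Figure D4:**
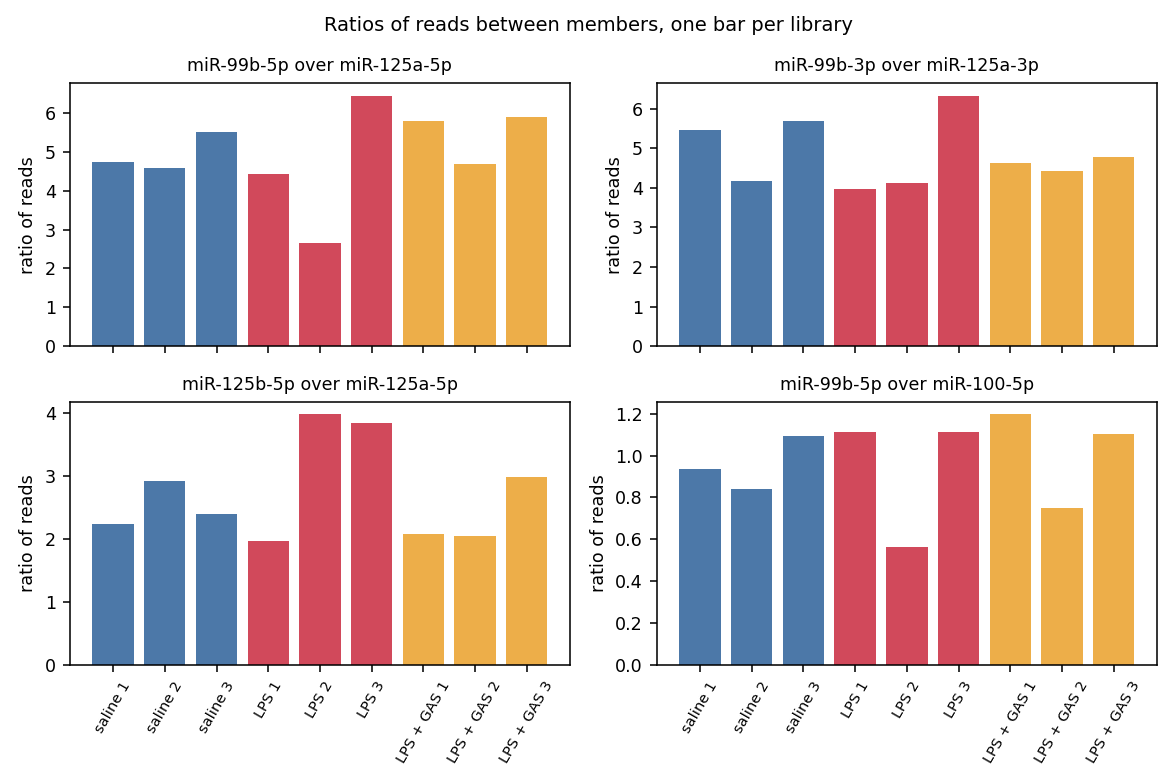
Ratios of reads between pairs of members are drawn as a bar per library, coloured by group, with axes from 0. In LPS replicate 2 the ratio of miR-99b-5p to miR-125a-5p (2.65) and to miR-100-5p (0.564) is the lowest, and the ratio of the 3p arms (4.11) is not.

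For miR-125b, the 3p arms differ between the 2 hairpins, and reads of both were found. MiR-125b-2-3p, from chromosome 16, had 2.06 times the reads of miR-125b-1-3p, from chromosome 9, with a range of 1.69 to 2.64. The reads of miR-125b-5p were 27.7 to 55.5 times those of both 3p arms together, with LPS replicate 1 lowest and LPS replicate 2 highest.

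The remaining products of these 3 loci, listed as 10 partners (the let-7e, let-7c and let-7a arms and the other 3p arms of miR-99a, miR-100 and miR-125b), were all tested and 0 were called by edgeR in any comparison, with an unadjusted p under 0.05 for none. Their log2 fold changes ran from -0.33 to 0.16 in LPS vs saline, from -0.14 to 0.39 in LPS + GAS vs LPS and from -0.25 to 0.30 in LPS + GAS vs saline. MiR-99a-3p in LPS + GAS vs LPS was the 1 case without overlap between groups, at 17.9 to 22.1 CPM against 16.7 to 17.5 CPM, which is 1 of 10 partners beside 8.60% of all miRNAs tested. Let-7c-5p, from 2 hairpins, and let-7a-5p, from more than 1, were the most abundant partners at 61770 to 111900 CPM and 22410 to 39190 CPM.

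To find the miRNAs whose pattern was most like each member, the SD over the 9 libraries of the log2 ratio of their reads was taken for the 195 miRNAs with a mean of at least 1000 reads, leaving out the member itself where it was among them. A small SD means that the ratio of 2 miRNAs was steady over the libraries, which is also so where both were steady, and both counts of a point share the library's depth. MiR-425-5p (0.10) and miR-27a-3p (0.13) were most like miR-125a-5p, and miR-30d-5p (0.17) and miR-676-3p (0.23) most like miR-125b-5p. For miR-99a-5p they were miR-27b-3p (0.10) and miR-136-5p (0.10), for miR-100-5p miR-33-5p (0.10) and miR-151-5p (0.10), and for miR-99b-5p miR-191-5p (0.20) and miR-150-5p (0.22). MiR-150-5p, a lymphocyte miRNA, was at 2547 CPM in LPS replicate 2 and 3622 to 6182 CPM elsewhere, so the lowest library was shared with miR-99b-5p. Its level made up nearly all of the leukocyte and microglia sum given above. MiR-30d-5p was at 1178 to 2455 CPM with its highest level in LPS replicate 2, as was miR-125b-5p. For the 3p arms, miR-29c-5p (0.10) and miR-3068-5p (0.13) were most like miR-125a-3p, with miR-125a-5p in place 3, and miR-126a-3p (0.13) and miR-129-5p (0.13) most like miR-99b-3p. For the 5p members the nearest other member was in place 11 to 62.

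The deposited table holds a second whole number for each miRNA and library, named exp, whose making was not stated. It was equal to or below the read count, and it fell short most for the abundant members. For miR-99a-5p exp was 26.0% to 31.5% of the reads, for miR-100-5p 69.0% to 75.4%, for miR-99b-5p 67.2% to 82.7%, for miR-125b-5p 76.4% to 86.5% and for miR-125a-5p 91.2% to 93.7%. The 3p arms were nearly untouched, at 98.8% to 100% for miR-99b-3p and 100% for miR-125a-3p. The highest exp of any miRNA in any library was 171527, whereas the most abundant miRNA reached 1310654 reads. On the exp scale miR-99a-5p was thus nearer to miR-100-5p, and still 5 of the 6 neighbouring pairs were separated and 0 of the 7 were called.

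**Figure D5:**
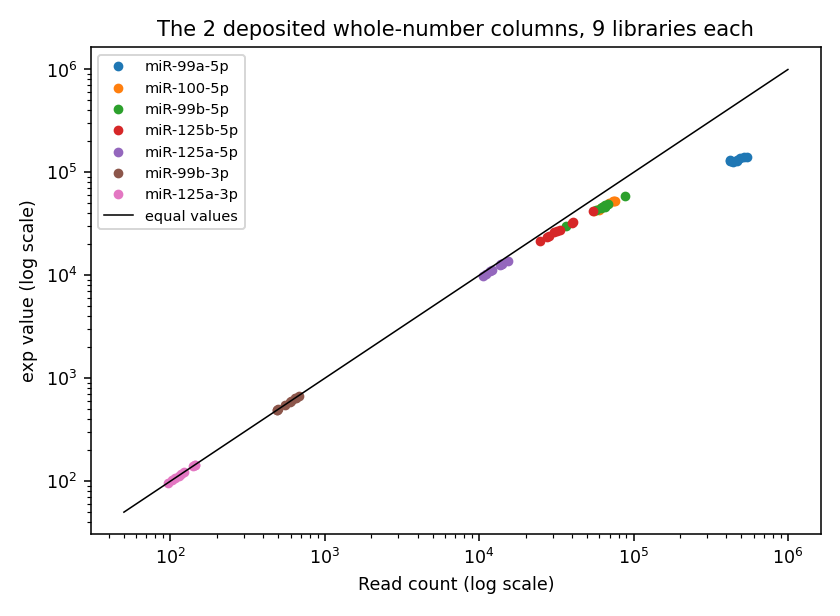
The deposited exp value is plotted against the read count (both log scale) for the 7 miRNAs in 9 libraries, with a line where both are equal. Points of the 3p arms lie on the line, and those of miR-99a-5p lie farthest below it, at 26.0% to 31.5% of the reads.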

How the data were processed

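The authors deposited a table of read counts per mature miRNA and library, not normalized, with a second count column (exp), group means, and their own log2 fold changes, p-values and q-values from DESeq2. The means and the authors' comparison columns were not used. The submitters' processing notes name GRCm38.p6. The aligner, its version and its settings are not given in the sources used. Small RNA libraries were made by a BGISEQ-500 protocol. Counts were fitted in R 4.3.3 with edgeR 4.0.16 (at least 10 reads in 3 of 9 libraries, TMM, a mean per group, glmQLFit and glmQLFTest, Benjamini-Hochberg over 628 miRNAs). CPM use TMM-scaled totals and are given to at most 4 digits. Log2 arm ratios (0.5 added to both arms) were fitted with limma 3.58.1 over 188 hairpins. Depth, 10119758 to 11457656 reads, puts 10 reads near 1 CPM. The miRNAs named are the 7 members, their cluster partners, rows with a member's seed and, for each member, the 2 others with the steadiest read ratio to it. The members and lists were chosen with earlier results of these data known. Scripts were tested on simulated data. Hairpins were placed on GRCm38 with GENCODE M21. DESeq2 1.42.0 and voom were among the alternatives. Deviations from the group means in same-numbered LPS + GAS and saline libraries had correlations of 0.224, 0.243 and 0.275. Libraries with different numbers were not compared, so these values do not show a pairing, and the labels state none.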

Additional observations from a re-analysis of the deposited data

How the results depend on the processing

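Results were recomputed with DESeq2's size factors, with no filter, with a filter of 50 reads, the DESeq2 Wald test, voom, no minimum fold change, only the 2 groups compared, exp values, paralogue reads added together, a pseudocount of 1 for arm ratios, the replicate block and each library left out. Under each that applied, 0 of the 7 miRNAs and 0 of the 2 member hairpins were called in every comparison, and with exp values or a library left out 5 neighbouring pairs were separated. Over all miRNAs, LPS vs saline gave 2 calls with no filter, 1 by DESeq2's Wald test, and 0 to 1 with a library left out (1 without LPS replicate 2 or LPS + GAS replicate 3), and LPS + GAS vs LPS gave 0 to 1 (1 without LPS replicate 2). The cause was not tested.

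Some signs turned, each without a call. The sums of miR-125a-5p and miR-125b-5p reads are mostly miR-125b-5p. For LPS vs saline, miR-125a-5p was 0.0087 with DESeq2's size factors or Wald test, 0.0019 with only the 2 groups compared, and 0.0044 with exp values, and the sum with miR-125b-5p was 0.25. MiR-99b-3p was 0.020 with DESeq2's size factors or Wald test, 0.019 with exp values, 0.0087 with no filter and 0.012 with only the 2 groups compared. For LPS + GAS vs LPS, this sum was -0.27. For LPS + GAS vs saline, miR-125a-5p was -0.0037 by voom, the sum with miR-125b-5p was -0.023, miR-99a-5p was 0.028 with exp values, and miR-100-5p with miR-99a-5p added was -0.031.

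In the fit with the replicate block, miR-125a-5p in LPS + GAS vs saline was -0.0047 and no call among the 7 changed. In the other comparisons the correlations of same-numbered libraries ran from -0.257 to 0.338, and the block gave 0 calls over all miRNAs in both. Whether equal numbers mark a pairing was not tested, since libraries with different numbers were not correlated.

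With a library left out, log2 fold changes of LPS vs saline ran from -0.16 to 0.044 for miR-125a-5p, -0.042 to 0.20 for miR-125a-3p, -0.41 to 0.13 for miR-99b-5p and -0.21 to 0.074 for miR-99b-3p. Those of LPS + GAS vs LPS ran from -0.049 to 0.17 for miR-125a-5p, -0.11 to 0.091 for miR-125a-3p and -0.17 to 0.11 for miR-99b-3p. Those of LPS + GAS vs saline ran from -0.050 to 0.16 for miR-125a-5p, -0.16 to 0.050 for miR-125b-5p, -0.065 to 0.19 for miR-125a-3p, -0.13 to -0.0092 for miR-99a-5p, -0.16 to 0.035 for miR-99b-3p and -0.020 to 0.25 for miR-100-5p. The arm ratio differences ran from -0.45 to 0.072 for miR-99b in LPS vs saline and -0.14 to 0.038 for miR-125a in LPS + GAS vs saline, and the log2 level of miR-100-5p minus miR-99b-5p ran from -0.0085 to 0.13. The widest intervals were those of miR-99b-5p, and each group had 3 libraries.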
